A study of Homo sapiens with 6 samples.

Results

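DNMT3A and TET3 encode enzymes that act on DNA methylation in opposite ways. Both genes held regions listed with a methylation difference between HepG2 cells that overexpress DNMT3A and control cells. The members were all regions of the 3 deposited lists that overlap a window just wider than either gene, and all of them lie within the RefSeq extent of DNMT3A (chromosome 2: 25227874-25342590, hg38) or TET3 (chromosome 2: 73983631-74135498). They number 9 of the 4344 listed regions, 4 in DNMT3A and 5 in TET3, and they merge into 5 separate positions. The DNMT3A regions were less methylated and the TET3 regions more methylated in the overexpressing cells.

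DNMT3A is a de novo DNA methyltransferase, which adds methyl groups to cytosines of CpG dinucleotides that carried none before. TET3 is a dioxygenase that oxidises 5-methylcytosine to 5-hydroxymethylcytosine and further products, a step towards its removal. Bisulfite sequencing reads 5-methylcytosine and 5-hydroxymethylcytosine alike, so every level given here is the sum of both. Both genes have more than 1 annotated promoter, and CpG-rich promoters are commonly unmethylated while gene bodies are commonly methylated.

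The overexpressing cells were HepG2 infected with a lentivirus that overexpresses DNMT3A, and the controls were HepG2 with genotype label WT, infected with a control lentivirus. HepG2 is an established human hepatocellular carcinoma line. Each group had 3 libraries of reduced representation bisulfite sequencing (RRBS), in which MspI cuts DNA at CCGG and the CpG-rich fragments are sequenced after bisulfite conversion. Each list compares the 2 libraries that carry one number, an overexpressing and a control library, called a pair here. The labels do not give the vector's promoter, its DNMT3A sequence, whether the infected cells were a clone or a pool, or whether libraries came from separate cultures. The p-values therefore reflect how much these libraries varied, and that variation may be technical. Mapped reads ranged from 25764323 to 29924507 in overexpressing and from 26912596 to 29269281 in control libraries. The files hold no reads per region, so the depth behind a regional level is unknown, and they hold no expression, so the amount of DNMT3A or TET3 transcript and the liver identity of the cells were not checked.

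The TET3 regions lay around an internal transcription start of the gene, and the sequence of the region found in all 3 pairs is shown because each of its CpG dinucleotides is a place where a gain could be read. It is the plus strand of GRCh38.p14 from RefSeq, chr2:74002468-74002680, merged over the 3 pairs, with each CpG in capitals. The first base is the G of a CpG whose C lies just outside. The shorter stretch, chr2:74002518-74002573, is common to all 3 pairs.
TET3 merged region: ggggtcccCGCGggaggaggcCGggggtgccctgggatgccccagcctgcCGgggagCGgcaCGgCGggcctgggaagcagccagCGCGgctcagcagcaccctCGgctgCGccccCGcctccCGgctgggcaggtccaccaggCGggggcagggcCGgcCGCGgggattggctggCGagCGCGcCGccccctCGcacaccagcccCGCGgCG
TET3 common stretch: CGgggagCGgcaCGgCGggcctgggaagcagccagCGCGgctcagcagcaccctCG

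The merged region spans 213 bp, has 25 whole CpG dinucleotides and is 82.2% G and C. It ends 12 bp before the RefSeq start at position 74002692, and the common stretch of 56 bp with 7 CpG dinucleotides ends 119 bp before it. TET3 is transcribed from the plus strand, and 2 of its starts are in the promoter table used, the other at position 73984910. No listed region overlapped the window of 250 bases before to 50 after that first start, and that window holds 45 CpG dinucleotides, more than the 33 in the window of the internal start. The 33 are themselves above the median of 14 over all 35116 promoter windows of the table, and 82.8% of windows hold fewer. The window of the internal start has 5 CCGG sites, the motif that MspI cuts, 4 of them in the merged region, against a median of 1 per window. CCGG, which reads the same on both strands, occurs in 63.1% of all windows.

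**Figure D1:**
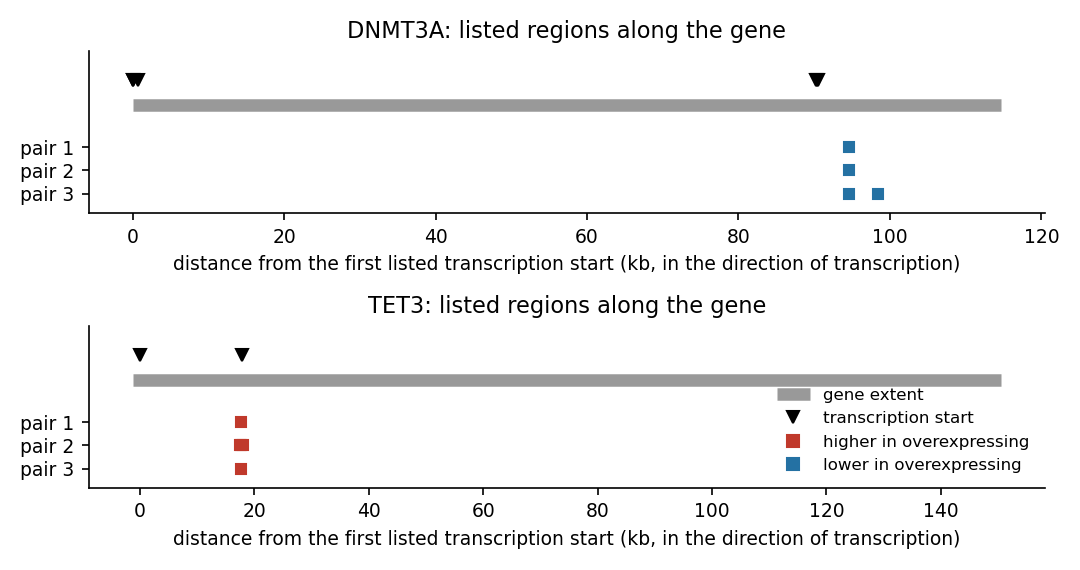
Listed regions (squares, one row per pair) along DNMT3A and TET3, drawn in the direction of transcription as distance in kb from the first start in the promoter table; triangles are starts and the grey bar is the RefSeq gene extent. The 5 TET3 regions sit at the internal start, 17441 to 18033 bp past the first start, and the 4 DNMT3A regions lie 94457 to 98464 bp past the first start and downstream of the internal starts.

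TET3 was listed as higher in every pair, once in pair 1, 3 times in pair 2 and once in pair 3. Higher regions made up 82.1%, 81.7% and 81.1% of all regions listed in pairs 1, 2 and 3, so 5 of 5 higher regions is near what these lists hold in any case. The 5 regions fall within 593 bp (chromosome 2: 74002351-74002943) and share libraries, so they do not count as independent gains.

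At the region found in all pairs, the methylation level in the overexpressing libraries 1, 2 and 3 was 0.217, 0.263 and 0.197, against 0.104, 0.115 and 0.0532 in control libraries 1, 2 and 3. A level is the authors' mean methylation of the region, a fraction from 0 to 1. Every overexpressing library lay above every control library, and pair 3 was the lowest in both groups. The mean was 0.226 ± 0.0337 in overexpressing and 0.0908 ± 0.0331 in control libraries (SD, n = 3 each), which is 2.48 times the control level and a difference of 0.135 ± 0.0185 (SD over 3 pairs). The unmethylated share was 0.774 in overexpressing against 0.909 in control libraries, 0.852 times as much. TET3 passed in limma on the logit scale, with a logit difference of 1.04 ± 0.216 (SE; adjusted p = 0.00199 over the 272 regions listed in all pairs). The exact two-sided permutation p of 0.1 is the smallest that 3 libraries against 3 can give. In that limma fit 96.0% of the 272 regions were called higher, and 95.6% had every overexpressing library above every control. A region joins the 272 only by being called in each pair, so for both genes the test is no independent evidence of a change.

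The TET3 gain was small for such a region: 14 of the 269 regions with a positive mean difference had a smaller one, and the median over all 272 was 0.277. Its SD between control libraries, 0.0331, was above the median SD of 0.0221, while the SD between overexpressing libraries, 0.0337, was close to the median of 0.0344. The region's extent also differed between pairs. Pair 1 listed 56 bp with 14 CpG cytosines, counted on both strands, pair 2 listed 111 bp with 22, and pair 3 listed 202 bp with 45. These are all 14, all 22 and 45 of the 47 CpG cytosines that the sequence holds within those bounds. The levels of the 3 pairs thus describe different numbers of cytosines. The lower levels of pair 3 come with the longest region, which reaches closest to the start, and an effect of extent on the level cannot be told apart from a difference between libraries.

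Pair 2 alone listed regions on both sides. Upstream, in a region that ends 281 bp before the start (chromosome 2: 74002351-74002411, 61 bp, 10 CpG cytosines), the level was 0.452 in overexpressing library 2 and 0.255 in control library 2, a difference of 0.197. Downstream, 151 to 251 bp after the start (chromosome 2: 74002843-74002943, 101 bp, 15 CpG cytosines), it was 0.258 in overexpressing library 2 and 0.0978 in control library 2, a difference of 0.160. Between them, in the region shared with the other pairs, the difference in pair 2 was 0.147. In both libraries of pair 2 the upstream region was thus the most methylated of the 3, and the other 2 were close to each other. Neither flanking region was listed in pairs 1 and 3, which says only that no call was made there, and without reads per region these single-pair differences have no replicate check.

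**Figure D2:**
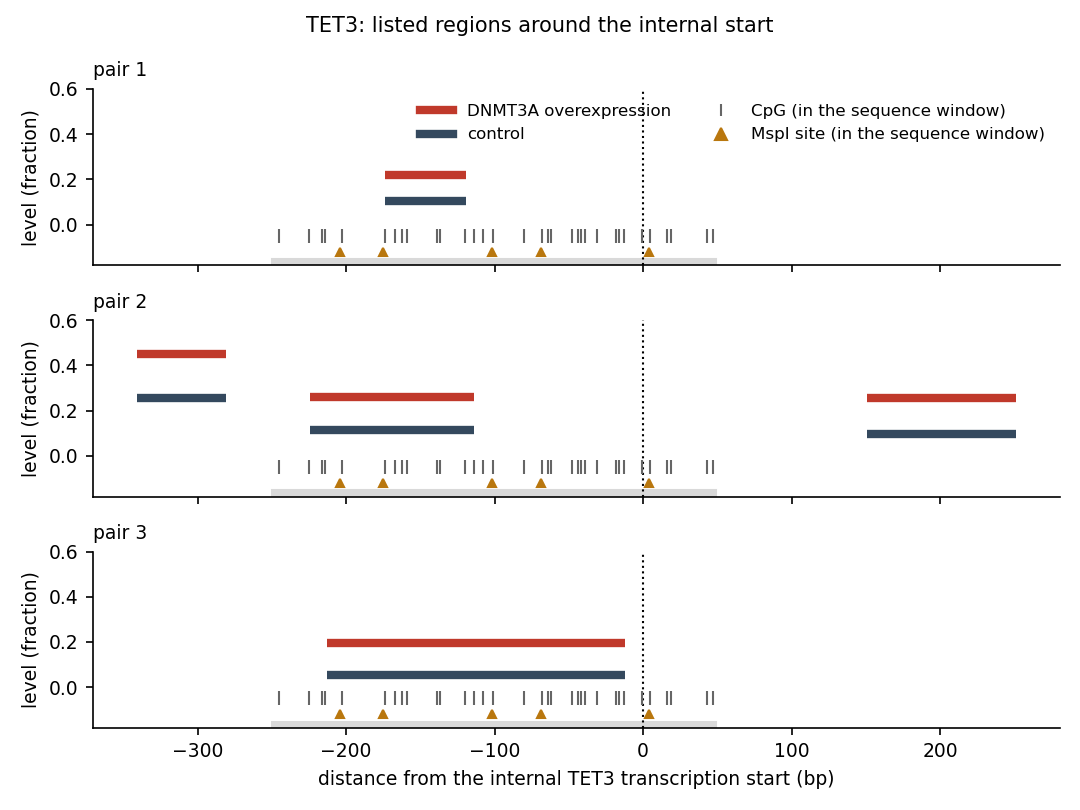
Mean methylation level (fraction) of each listed TET3 region in DNMT3A overexpression and control libraries, one panel per pair, against distance in bp from the internal start (dotted line). Ticks mark CpG dinucleotides and triangles MspI sites within the 300-base sequence window (grey bar); in each pair the overexpressing bar is above the control bar, by 0.113 to 0.197.

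DNMT3A, the overexpressed gene, went the other way. All 4 of its listed regions were lower, once each in pairs 1 and 2 and at 2 positions in pair 3. Lower regions made up 17.9%, 18.3% and 18.9% of the lists of pairs 1, 2 and 3. The 4 regions are 2 positions that share libraries, so they do not count as independent losses. Regions of like control level are given further below. One position, chromosome 2: 25247939-25248133, was listed in all pairs. Its level in overexpressing libraries 1, 2 and 3 was 0.628, 0.608 and 0.650, against 0.891, 0.896 and 0.889 in control libraries 1, 2 and 3. The groups did not overlap, and the 3 controls were nearly equal.

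The DNMT3A mean was 0.629 ± 0.0212 in overexpressing and 0.892 ± 0.00325 in control libraries (SD, n = 3 each), a difference of -0.263 ± 0.0244 over the pairs. Put as the unmethylated share, this is 0.371 in overexpressing against 0.108 in control libraries, 3.44 times as much. The methylated level in overexpressing libraries was 0.705 times the control level. DNMT3A passed in limma with a logit difference of -1.52 ± 0.104 (SE; adjusted p = 1.41e-05 over the 272 regions), and the exact two-sided permutation p was again 0.1, the smallest possible. Among the 272, 2 regions or 0.735% were called lower, and the same share had every overexpressing library below every control. DNMT3A had the highest mean control level of the 272. Only 3 of the 272 had a negative mean difference, and that of DNMT3A was the most negative of these. Among all lower regions of lists 1, 2 and 3 it ranked 142 of 266, 119 of 262 and 160 of 270 by size.

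The bounds of the DNMT3A region were nearly the same in the 3 pairs. It spanned 163 bp with 22 CpG cytosines in pair 1, 195 bp with 25 in pair 2 and 162 bp with 21 in pair 3, always ending at position 25248133, so the pairs have a stretch of 162 bp in common. The TET3 pairs had 56 of 213 bp in common. The second position, chromosome 2: 25244126-25244178 (53 bp, 5 CpG cytosines), was listed in pair 3, with a level of 0.820 in overexpressing library 3 and 0.934 in control library 3, a difference of -0.114. It ranked 258 by size among the 270 lower regions of that list, and 5.11% of the list's regions had fewer CpG cytosines.

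DNMT3A is transcribed from the minus strand. Its promoter table entries fall into 3 starts at positions 25341925 to 25342590 and 3 internal starts at positions 25252131 to 25252315, and the synonym DNMT3A2 of the gene table is the name of the short isoform that internal transcription gives. The shared region began 3998 bp downstream of the nearest internal start, and the second position 7953 bp downstream. None of the 6 windows around these starts, with 18 to 46 CpG dinucleotides each, overlapped a listed region. The place of both positions relative to exons was not analysed here. Reads from the endogenous gene and from an introduced DNMT3A sequence were not separated in the deposited levels, so a change of the endogenous copies and reads of introduced copies cannot be told apart at either position.

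**Figure D3:**
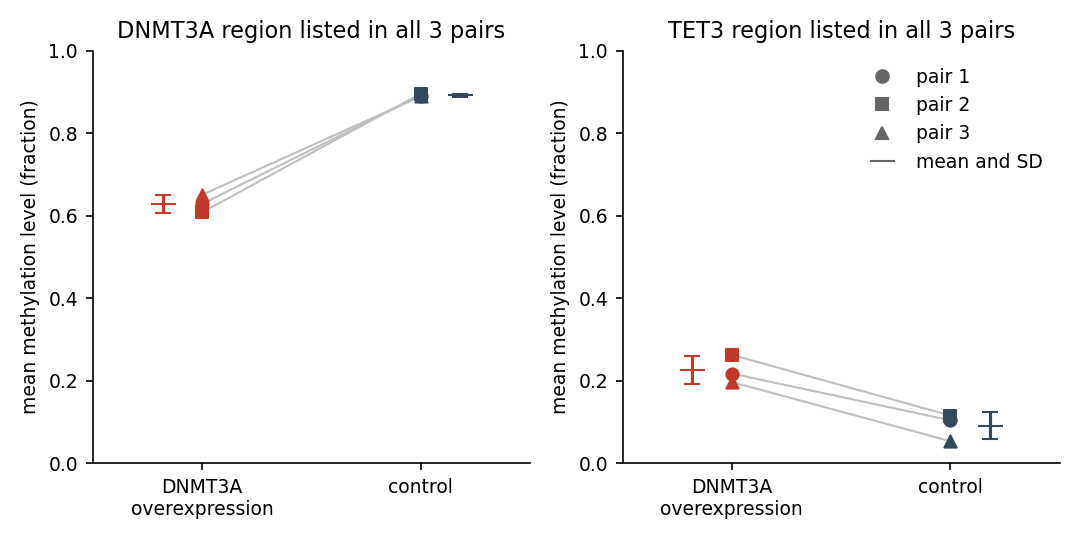
Mean methylation level (fraction) of the 6 libraries at the DNMT3A and TET3 regions listed in all pairs; each symbol is 1 library, lines join the libraries of a pair, and the bars beside them are group means with SD (n = 3). Overexpressing libraries lie at 0.608 to 0.650 against controls at 0.889 to 0.896 in DNMT3A, and at 0.197 to 0.263 against 0.0532 to 0.115 in TET3.

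The shared DNMT3A region started near the top of the scale and the TET3 region near its bottom. All 4 DNMT3A regions had a control level of at least 0.85, a limit set after the values were seen, and 98.5% to 99.2% of the regions in their lists had a lower control level. All TET3 regions but the upstream one of pair 2 had a control level under 0.15, likewise set afterwards. The bounds of the scale limit direction in these bands: a level of at least 0.85 can rise by at most 0.15 and one under 0.15 can fall by less than 0.15. The median listed gain was 0.264 to 0.266. Smaller changes were listed too, down to 0.0259 in size in pair 1, and how many would fit within 0.15 was not counted. Of the listed regions in the upper band, 31 of 31 were lower in pair 1, 34 of 35 in pair 2 and 34 of 35 in pair 3, and of those in the lower band 517 of 523, 498 of 505 and 442 of 448 were higher. These counts support no link between control level and direction, and neither do the directions at DNMT3A and TET3.

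Within these bands the changes at the shared regions of both genes were below the median in size. At the shared DNMT3A position the differences of pairs 1, 2 and 3 were -0.263, -0.288 and -0.239, smaller in size than the medians of -0.420, -0.385 and -0.376 of the highly methylated band. At the shared TET3 position they were 0.113, 0.147 and 0.144, below the medians of 0.241, 0.236 and 0.226 of the low band. By size of the difference the shared TET3 region ranked 1156 of 1217 higher regions in pair 1, 1045 of 1171 in pair 2 and 1054 of 1158 in pair 3. The shared DNMT3A region ranked 142 of 266 lower regions in pair 1, 119 of 262 in pair 2 and 160 of 270 in pair 3.

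**Figure D4:**
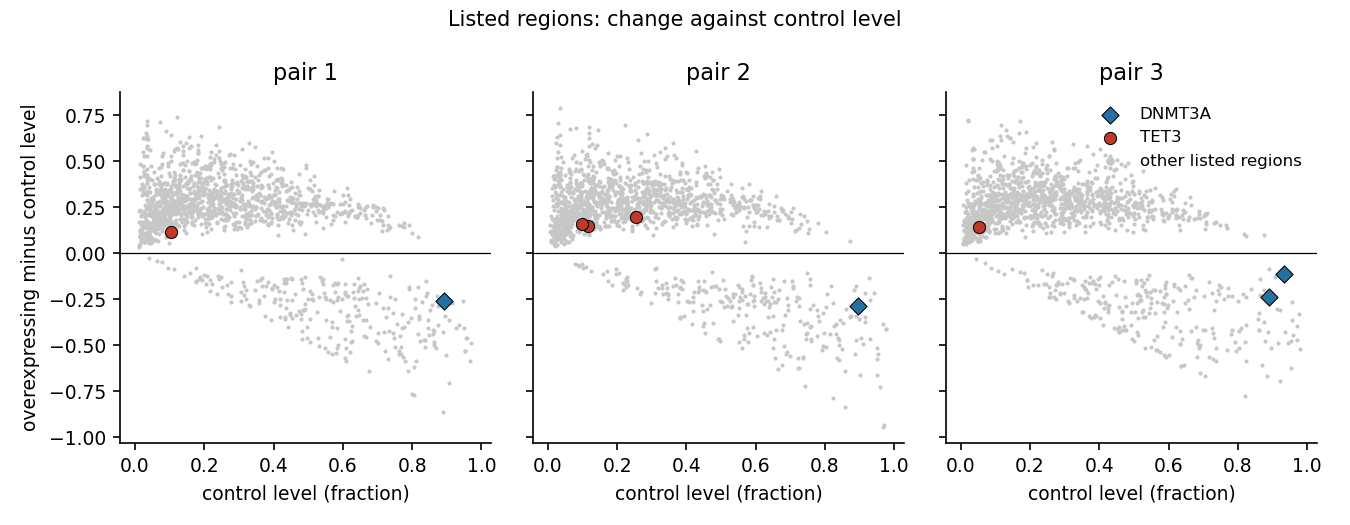
Overexpressing minus control level against control level (both fractions) for every listed region, one panel per pair, with DNMT3A regions as diamonds, TET3 regions as circles and other listed regions in grey. DNMT3A sits at control levels of 0.889 to 0.934 below the zero line, and TET3 at 0.0532 to 0.255 above it.

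The shared TET3 region overlapped a promoter window, as a small part of the listed regions did. These windows are 300 bases long, and how much of the sequenced DNA they hold is not known here. No rarity is therefore read from the counts. Listed regions that overlap any promoter window, on the chromosomes of that table, were 90 of 1427 in pair 1, 94 of 1371 in pair 2 and 91 of 1371 in pair 3. Of these 68.9%, 73.4% and 68.1% were higher, with median differences among the higher ones of 0.216, 0.198 and 0.213. The shared TET3 region, at 0.113 to 0.147, lay below these medians too.

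The regions most like each of the shared positions were sought by Euclidean distance over the levels of the 6 libraries, among the other regions listed in all pairs. TET3 had close neighbours. The nearest, in or within 1 kb of TICAM2, TICAM2-AS1 and TMED7-TICAM2 (chromosome 5: 115602125-115602333, distance 0.0479), averaged 0.212 in overexpressing and 0.0995 in control libraries. The next were at LOC124903820 (distance 0.0674; 0.260 in overexpressing and 0.0910 in control libraries) and HPCAL1 (distance 0.0816; 0.253 in overexpressing and 0.0766 in control libraries). DNMT3A had no close neighbour in this set, where 3 of 272 regions had a negative mean difference. The nearest region, at GDA, was 0.539 away and was higher, at 0.883 in overexpressing and 0.715 in control libraries. The next, at THY1 and USP2-AS1 (distance 0.579) and at LINC01132 (distance 0.609), were higher as well, by 0.186 and 0.227. Regions listed in fewer pairs were not searched. In the lists of pairs 1, 2 and 3, 31, 34 and 34 lower regions, DNMT3A included, had a control level of at least 0.85.

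A few other genes of the methylation machinery had a listed region. Of 40 further genes, which cover methyltransferases, TET enzymes, methyl-CpG readers, base excision repair, cofactor supply and chromatin partners, 4 had a listed region inside the gene or within 1 kb, with 5 regions in all. That is 10.0% of the genes, near the 8.84% of all 20056 protein-coding genes of the RefSeq table. All 5 regions were higher, as were 81.7% and 81.1% of the lists of pairs 2 and 3 that hold them. ZBTB4, a zinc finger protein that binds methylated CpG, was listed in pairs 2 and 3 at the same bounds (chromosome 17: 7477876-7477973), with 0.312 and 0.398 in overexpressing libraries 2 and 3 against 0.0470 and 0.0830 in control libraries 2 and 3. The others were listed in 1 pair each. EZH2, the catalytic subunit of Polycomb repressive complex 2, stood at 0.772 in overexpressing and 0.429 in control library 3. MBD5, of the methyl-CpG binding domain family, stood at 0.955 in overexpressing and 0.616 in control library 2. GADD45B, of a stress-response family linked to demethylation, stood at 0.131 in overexpressing and 0.0338 in control library 2. Among the 36 without a listed region were the methyltransferases DNMT1 and DNMT3B, the regulator DNMT3L and the dioxygenases TET1 and TET2, and a gene without a call can be unchanged or not covered.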

How the data were processed

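DNA of HepG2 cells was analysed by RRBS, per the labels' protocols, and coordinates are on hg38 per the submitters' processing notes. No label or header used here names the aligner, the region caller or its thresholds. Per the file headers, the authors gave each region's mean level in both libraries as a fraction. The number of CpG sites per region and the reads per library are deposited counts, and the mapping rate is a percent value of the authors. The deposited area score was not used. At the 113 listed regions that lie inside a RefSeq promoter window (GRCh38.p14), both ends fell on a CpG cytosine when counted from 1, in 113 cases. The listed number of sites was above the number of CpG dinucleotides in 88 and equalled the CpG cytosines of both strands in 71, so cytosines of both strands were counted.

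Regions overlapping by at least 1 bp were merged, which gave 3313 distinct regions, 272 of them in all pairs. Several regions of 1 pair within a merged one were averaged with their CpG sites as weights. For the 272, limma 3.58.1 (R 4.3.3) was fitted to logit levels (offset 0.01, no replicate block), with calls made at a Benjamini-Hochberg adjusted p under 0.05; the step was tested on simulated data. The pairing by number rests on the authors' own comparisons. Deviations from the group means had correlations within numbers 1, 2 and 3 of 0.393, 0.295 and 0.313. Between different numbers the correlations were -0.201 to -0.131. Both libraries of a pair were measured over that pair's own bounds, so these correlations cannot show that libraries are paired. Every listed region of both genes was named, and the 3 nearest regions by distance. Members, windows and gene lists were chosen with earlier results of these data known.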

Additional observations from a re-analysis of the deposited data

How the results depend on the processing

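Offsets of 0.001 and 0.05, untransformed levels, unweighted means, a replicate block and leaving out each pair kept the direction and the call at the shared regions of DNMT3A and TET3. With the replicate block the adjusted p (limma) was 8.4e-05 at DNMT3A and 0.000638 at TET3, and it changed no call at either gene. Without replicate 1, 2 or 3 the logit difference ranged from -1.58 to -1.46 at DNMT3A and from 0.891 to 1.15 at TET3, with adjusted p of at most 0.00108 and 0.0146 (limma). Across these settings 258 to 264 regions were called higher and 2 to 3 lower. The fits without a pair still used the 272 regions called in every pair, the left-out pair included. They are therefore no independent check of the calls. When regions had to overlap by 50 percent of the longer one, 195 regions were left, with 190 called higher and 2 lower; DNMT3A was among them and TET3 was not, because its bounds differ between pairs. With a difference of at least 0.2 required, 3 DNMT3A regions and 0 TET3 regions remained. Regions listed in at least 2 pairs were 3 in each gene. In each of these counts of 3, the regions are the gene's shared position, counted once per pair. Leaving out one pair at a time, a count chosen after the data were seen, left 2 to 3 regions in DNMT3A, with 2 without pair 3, and 2 to 4 in TET3, with 2 without pair 2. The unknown depth per region limits how firmly any single region can be read.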

Other observations

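The next listed region outside the DNMT3A window lay 112116 to 1837815 bp from the gene's listed regions over the 3 pairs and both sides. For TET3 the range was 196221 to 1077808 bp. Of the 6 neighbours of DNMT3A 3 were higher and 3 lower in the overexpressing library. Of the 6 neighbours of TET3 5 were higher and 1 lower. Higher regions made up 82.1%, 81.7% and 81.1% of the lists of pairs 1, 2 and 3. Neighbours of different pairs can lie at nearly the same place, so they do not count as independent.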
